A study of Mus musculus with 2 samples.

Results

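T cells and natural killer (NK) cells were a small fraction of the CD45+ leukocytes recovered from the mouse heart 1 week after surgery, and 169 of the 5263 kept cells met the rule used here. A cell was taken when it held under 2000 CPM of Lyz2, a myeloid lysozyme gene, and under 200 CPM of the B cell receptor gene Cd79a. CPM are the reads of a gene scaled to the same total for every cell. The cell also had to reach at least 1 of 3 limits, which were 50 CPM of Cd3g, 20 CPM of Ncr1 and 100 CPM of Gzma. The 121 cells at or above the Cd3g limit are called Cd3g cells, and the 48 cells taken by Ncr1 or Gzma without Cd3g are called Ncr1/Gzma cells. The cells were chosen by these 5 genes, so their levels are given only as a description. Male mice aged 8 weeks underwent sham surgery or transverse aortic constriction (TAC), a banding of the aorta that overloads the left ventricle. All were on a C57BL/6 background, and purchased mice were C57BL/6N. The 5 groups were WT sham, CD3e-/- sham, WT TAC, CD3e-/- TAC and a WT TAC group given an anti-CD8 antibody, labelled CD8-depleted TAC. CD3e-/- mice carry a knockout of the CD3 epsilon chain, whose allele is not described further in the sources used here. Cells of each group carried 1 hashtag and were read together in 1 TAS-Seq library, a whole-transcriptome single-cell method, after magnetic selection for CD45. Each group is therefore 1 sample, the number of hearts behind a hashtag is not given in the sources used here, and no test between groups was possible. The intervals below are exact 95% intervals, the limit given for a share of 0 is 3 cells of the total, and both cover counting error only.

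A T cell recognises antigen through an alpha-beta or a gamma-delta receptor, which signals through the gamma, delta and epsilon chains of CD3. Without CD3 epsilon the receptor does not assemble and T cells do not develop, whereas NK cells and other innate lymphoid cells arise without it. NK cells instead carry activating receptors such as NKp46, the product of Ncr1, together with Ly49 receptors, and kill with perforin and granzymes. Group 2 innate lymphoid cells lack both kinds of receptor, respond to interleukin 33 through Il1rl1 and are residents of many tissues. Helper T cells carry Cd4 and cytotoxic T cells carry Cd8a and Cd8b1, and T cells accumulate in the pressure-overloaded heart.

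Cd3g, Cd3d and Cd3e lie side by side within 40.1 kb of chromosome 9, and the rule used only the first of them. The start regions of these neighbours and of Ncr1 are shown because Cd3g was read without its neighbours in some of the cells described below. They are RefSeq windows of 300 bases on GRCm38.p6, printed on the strand of the gene, at chr9:44980382-44980681 (minus) for Cd3g, chr9:44981536-44981835 (plus) for Cd3d, chr9:45009562-45009861 (minus) for Cd3e and chr7:4337465-4337764 (plus) for Ncr1. Capitals mark matches, on either strand, to AGATAA of the GATA family, TGTGGTT of the RUNX family and CTTTGA of the TCF and LEF family.
Cd3g: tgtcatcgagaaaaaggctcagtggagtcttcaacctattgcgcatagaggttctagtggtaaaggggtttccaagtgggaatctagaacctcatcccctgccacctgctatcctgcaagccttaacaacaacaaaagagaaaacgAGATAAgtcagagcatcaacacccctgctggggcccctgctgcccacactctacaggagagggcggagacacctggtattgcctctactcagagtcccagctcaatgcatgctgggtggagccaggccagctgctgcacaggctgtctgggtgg
Cd3d: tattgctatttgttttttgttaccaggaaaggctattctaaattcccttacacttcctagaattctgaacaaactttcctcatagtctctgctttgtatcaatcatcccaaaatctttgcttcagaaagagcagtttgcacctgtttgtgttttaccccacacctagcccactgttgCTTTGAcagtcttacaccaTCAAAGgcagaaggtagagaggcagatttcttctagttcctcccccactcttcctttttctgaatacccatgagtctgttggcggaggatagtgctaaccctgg
Cd3e: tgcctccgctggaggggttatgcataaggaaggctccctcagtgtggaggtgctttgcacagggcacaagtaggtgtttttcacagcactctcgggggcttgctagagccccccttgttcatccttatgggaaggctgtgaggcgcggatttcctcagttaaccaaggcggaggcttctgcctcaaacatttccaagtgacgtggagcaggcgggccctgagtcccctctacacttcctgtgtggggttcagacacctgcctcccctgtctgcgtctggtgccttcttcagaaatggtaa
Ncr1: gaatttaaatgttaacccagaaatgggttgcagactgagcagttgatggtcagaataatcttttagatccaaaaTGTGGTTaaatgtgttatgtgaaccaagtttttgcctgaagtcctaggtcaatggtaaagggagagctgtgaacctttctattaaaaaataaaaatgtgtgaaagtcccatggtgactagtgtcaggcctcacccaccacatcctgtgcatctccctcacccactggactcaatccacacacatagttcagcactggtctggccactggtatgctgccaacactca
The Cd3g window held 1 AGATAA, which 11.2% of 32851 RefSeq windows of the same length hold. The Cd3d window held 2 matches to CTTTGA, present in 16% of windows, and the Ncr1 window held 1 TGTGGTT, present in 5.27%. The Cd3e window held none of these letters.

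The kept cells of a group held between 91899777 and 208758777 reads in all, and the median per cell ran from 75442 reads in WT sham to 117788 in CD3e-/- TAC. The targeted gene Cd3e was read at 17.8 CPM over all kept cells of WT sham and 10.8 CPM in WT TAC, against 3.73 CPM in CD3e-/- sham and 5.64 CPM in CD3e-/- TAC. Among Cd3g cells, Cd3e was at 251 CPM in both WT TAC and CD8-depleted TAC and at 269 CPM in WT sham. Cd3e reads were therefore present in the knockout groups, in 41 of 825 cells outside the T and NK cells of CD3e-/- sham and in 81 of 907 of CD3e-/- TAC. The same share in WT TAC was 68 of 1564 cells, and which exons the deletion removes was not given in the sources used here.

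Cd3g cells were nearly absent from CD3e-/- hearts, whereas Ncr1/Gzma cells were found in all 5 groups. Cd3g cells made up 4.90% (3.65 to 6.43, 49 of 1000 cells) of WT sham and 0.359% (0.0742 to 1.05, 3 of 835) of CD3e-/- sham. They made up 2.48% (1.78 to 3.36, 40 of 1615) of WT TAC and 0 of 919 cells of CD3e-/- TAC, which allows a share of up to 0.326%. In CD8-depleted TAC they made up 3.24% (2.18 to 4.63, 29 of 894). The WT TAC share lay under the WT sham interval, and the share in CD8-depleted TAC lay between them. A share of CD45+ cells cannot tell fewer T cells from more cells of other types. Lyz2 cells were 584 of 1000 kept cells in WT sham and 1118 of 1615 in WT TAC, and Cd79a cells were 103 and 93. Cell numbers per heart were not measured here, and the paper reports that T cell numbers in the heart rose after TAC. Without cells of 1000 CPM or more of Cd74, described further on, Cd3g cells made up 4% of WT sham (40 cells), 1.49% of WT TAC (24 cells) and 2.24% of CD8-depleted TAC (20 cells).
Ncr1/Gzma cells made up 1.2% (0.622 to 2.09, 12 cells) of WT sham, 0.838% (0.338 to 1.72, 7 cells) of CD3e-/- sham, 0.681% (0.340 to 1.22, 11 cells) of WT TAC, 1.31% (0.676 to 2.27, 12 cells) of CD3e-/- TAC and 0.671% (0.247 to 1.45, 6 cells) of CD8-depleted TAC. These 5 intervals all overlapped. Fewer cells of a type and fewer reads of its genes per cell cannot be told apart in a share alone, and the median depth of Cd3g cells was 37748 reads in CD3e-/- sham, 82089 in WT sham, 110510 in CD8-depleted TAC and 140506 in WT TAC.

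**Figure D1:**
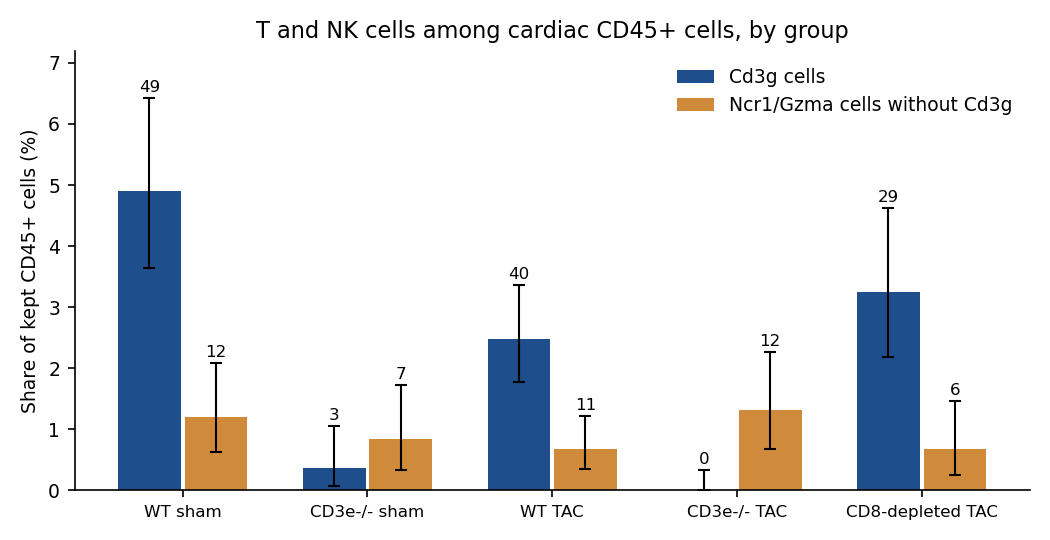
Share of kept CD45+ cells (y axis, percent) that were Cd3g cells (blue) or Ncr1/Gzma cells without Cd3g (orange) in each of the 5 groups. Bars give the share of 1 hashtag sample, error bars the exact 95% counting interval (for the group at 0, the limit of 3 cells), and numbers above them the cells. Cd3g cells reached 4.90% in WT sham and were 0 of 919 in CD3e-/- TAC, while Ncr1/Gzma cells stayed between 0.671% and 1.31%.

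The Cd3g limit fell in a gap of the data. No cell of low Lyz2 and Cd79a had Cd3g above 0 and below 50 CPM, and the lowest cell inside was at 63.8 CPM. Ncr1 had 14 cells below its limit, with 20.4 CPM just inside and 19.8 CPM just outside, and Gzma had 108 CPM inside and 73.2 CPM outside. The highest Lyz2 inside was 1925 CPM and the lowest outside was 2687 CPM. Of the 169 cells, 107 met Cd3g alone, 10 met Cd3g and Ncr1, 2 met Cd3g and Gzma, 2 met all 3, 21 met Ncr1 alone, 2 met Gzma alone and 25 met Ncr1 and Gzma.
Markers that the rule did not use were read in larger shares of both sides than of Lyz2 cells. Lyz2 cells are those with 2000 CPM or more of Lyz2, under 200 CPM of Cd79a and none of the 3 limits met. Trac, the constant chain of the alpha-beta receptor, was read in 90 of 121 Cd3g cells, in 3 of 48 Ncr1/Gzma cells and in 8 of 3496 Lyz2 cells. Nkg7, a gene of cytotoxic granules, was read in 44 of 48 Ncr1/Gzma cells, 51 of 121 Cd3g cells and 5 of 3496 Lyz2 cells. Il2rb, the beta chain of the interleukin 2 and 15 receptors, was read in 43 of 48, 78 of 121 and 5 of 3496 cells. Cells that met a limit were left out of the Lyz2 cells, so low marker shares there may partly follow from that choice. The part of free RNA in these shares was not tested, and median depth was 88062.5 reads in Ncr1/Gzma cells.

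Reads of an alpha or delta receptor chain were not found in all Cd3g cells. In 90 of the 121 Trac was read, and 6 more had Trdc, the delta constant chain, without Trac. Another 4 had Cd3d or Cd3e alone. The remaining 21 had none of Trac, Trdc, Cd3d and Cd3e, although Cd3g was at or above its limit. These 21 cells were 13 of 49 in WT sham (26.5%, 14.9 to 41.1), 3 of 3 in CD3e-/- sham, 4 of 40 in WT TAC (10%, 2.79 to 23.7) and 1 of 29 in CD8-depleted TAC (3.45%, 0.0873 to 17.8).
A lack of Trac reads is part of what defines the 21 cells, so the share with Trac is not a separate result. Trac was read in 29 of 49 Cd3g cells of WT sham (59.2%, 44.2 to 73.0), 35 of 40 of WT TAC (87.5%, 73.2 to 95.8) and 26 of 29 of CD8-depleted TAC (89.7%, 72.6 to 97.8). After each cell was thinned to 39259 reads, which left out 5, 2 and 0 shallower cells, Trac was read in 59.1%, 86.8% and 89.7%. Thinning to this depth therefore did not change the order of these groups in Trac.
The 21 cells fell into 2 kinds that did not overlap. In 14 of them Il1rl1, the interleukin 33 receptor, was read, and of these 14 cells Il7r was read in 14, Rora in 12, Gata3 in 12, Klrg1 in 12 and Areg in 5, while Ncr1 was read in none. Receptor constant genes were not absent from them, since Trbc1 or Trbc2 was read in 12 of the 14 and Trgc1 in 6. Rora and Gata3 are transcription factors of group 2 innate lymphoid cells, and Areg encodes the tissue-repair factor amphiregulin. The other 7 had Ncr1 at or above its limit, with Klrb1c (NK1.1), Tyrobp (the adaptor DAP12) and Trbc1 in all 7. Neither Cd4 nor Cd8 reached 20 CPM in any of the 21.
All 3 Cd3g cells of CD3e-/- sham were of the first kind. Their Il1rl1 levels were 478, 848 and 848 CPM, each had Rora, Il7r and Klrg1 reads, and none had Cd3d, Cd3e or Trac. Without the 21 cells the Cd3g share was 3.6% in WT sham and 0 in CD3e-/- sham.

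**Figure D2:**
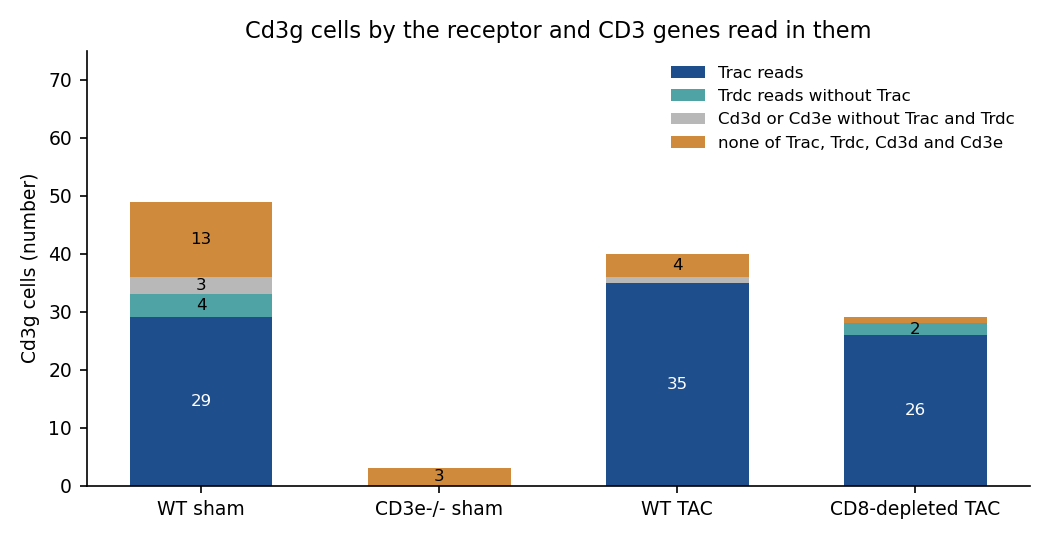
Number of Cd3g cells (y axis) in the 4 groups that held any, stacked by the receptor and CD3 genes read in them. The cells with none of Trac, Trdc, Cd3d and Cd3e (orange) were 3 of 3 in CD3e-/- sham, 13 of 49 in WT sham, 1 of 29 in CD8-depleted TAC and 4 of 40 in WT TAC.

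Cd3d and Cd3e were mostly read in the same Cd3g cells. Cd3d was read in 95 of 121 Cd3g cells, Cd3e in 92 and both in 88. In the 48 Ncr1/Gzma cells Cd3d was read in 6, at no more than 28.9 CPM, and Cd3e in 3. Those 3 were 1 cell of CD3e-/- sham at 129 CPM and 2 cells of CD3e-/- TAC at up to 91.8 CPM, and no Ncr1/Gzma cell of a WT group had a Cd3e read.
Beta-chain constant genes, which are close copies that may share reads, were less exclusive. Trbc1 or Trbc2 was read in 41 of 48 Ncr1/Gzma cells, and Trbc1 summed to 934 CPM in those of WT sham and 521 CPM in the Cd3g cells of WT sham, against 380 and 525 CPM in WT TAC. Of the variable segments, those of the beta chain separated the sides again. A Trbv segment at or above 50 CPM was seen in 24 of 121 Cd3g cells and 0 of 48 Ncr1/Gzma cells, which allows a share of up to 6.25%. The segments seen in most cells were of the delta and gamma chains and did not separate the sides. Trdv4 was at or above 50 CPM in 9 Cd3g cells and 4 Ncr1/Gzma cells, Trgv2 in 7 and 1, and Trdv2-2 in 2 and 5. The files hold 10 Trbv segments, so most beta chains could not be read.

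Cd4 was read in fewer Cd3g cells of WT sham than of WT TAC or CD8-depleted TAC, whereas for Cd8 the intervals of these groups overlapped. Cd4 was at or above 20 CPM in 9 of 49 Cd3g cells of WT sham (18.4%, 8.76 to 32.0), 20 of 40 of WT TAC (50%, 33.8 to 66.2) and 16 of 29 of CD8-depleted TAC (55.2%, 35.7 to 73.6). Cd8a or Cd8b1 reached 20 CPM in 8 of 49, 10 of 40 and 4 of 29. Neither was reached in 33 of 49 Cd3g cells of WT sham, 12 of 40 of WT TAC and 9 of 29 of CD8-depleted TAC. Among the Cd3g cells with Trac reads, Cd4 was reached in 8 of 29 (12.7 to 47.2%), 20 of 35 (39.4 to 73.7%) and 16 of 26 (40.6 to 79.8%), so that these intervals overlapped. Cd8 was reached there in 8 of 29, 10 of 35 and 4 of 26. Without the Cd3g cells of 1000 CPM or more of Cd74, Cd4 was reached in 5 of 40 (4.19 to 26.8%), 10 of 24 (22.1 to 63.4%) and 9 of 20 (23.1 to 68.5%). These Cd4 intervals overlapped too. In cells thinned to 39259 reads, Cd4 was read in 18.2% of Cd3g cells of WT sham, 52.6% of WT TAC and 58.6% of CD8-depleted TAC, against 20.4%, 55.0% and 65.5% at full depth.
Cd3g cells at or above 20 CPM of Cd8a or Cd8b1 were thus still present in the group labelled CD8-depleted TAC. They were 13.8% (3.89 to 31.7) of its Cd3g cells against 25.0% (12.7 to 41.2) in WT TAC, and the intervals overlapped. This is a share by RNA, whereas the paper counted CD4+ and CD8+ T cells of the heart by flow cytometry, and such numbers were not measured here. Over all Cd3g cells of CD8-depleted TAC, of which 4 reached the Cd8 limit, Cd8a was at 117 CPM and Cd8b1 at 168 CPM. The WT TAC levels were 165 and 247 CPM. Foxp3, the factor of regulatory T cells, was read in 2, 1 and 3 cells. Cd4 was read in 6.46% of Lyz2 cells at 5.01 CPM and Cd8b1 in 0 of 3496. Cd4 reached 20 CPM in 2.97% of Lyz2 cells (104 of 3496).
The 6 cells with Trdc and no Trac were 4 in WT sham and 2 in CD8-depleted TAC, with 0 in WT TAC. Il7r was read in all 6, Trgc1 in 5, the interleukin 23 receptor Il23r in 5 and Il17a in 3. These are genes of gamma-delta T cells that make interleukin 17.

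A set of 34 Cd3g cells carried antigen-presentation genes, and they weighed on the summed levels of every group that held them. Cd74, the invariant chain of MHC class II, was at 0 in 86 Cd3g cells, at 410 CPM in 1 and between 2153 and 32973 CPM in 34. The 34 were 9 of 49 cells in WT sham (18.4%, 8.76 to 32.0), 0 of 3 in CD3e-/- sham, 16 of 40 in WT TAC (40.0%, 24.9 to 56.7) and 9 of 29 in CD8-depleted TAC (31.0%, 15.3 to 50.8). Their median depth was 212862 reads and 6466 genes, and that of the other 87 was 75757 reads and 3637 genes.
Genes of dendritic cells were read in the same cells. Cd209a was read in 26 of the 34, the class II regulator Ciita in 28, Tyrobp in 31 and Xcr1 in 2, against 0 for Cd209a, Ciita and Xcr1 and 11 for Tyrobp in the 87. The summed level of 6 dendritic cell markers was 1157.5 CPM in the 9 cells of WT sham (0 to 3781 per cell), 1135 CPM in the 16 of WT TAC (0 to 2599) and 673 CPM in the 9 of CD8-depleted TAC (0 to 2486.5). In the other Cd3g cells of these groups it was 2.31, 22.8 and 1.21 CPM, with Xcr1, Clec9a and Cd209a at 0 in all 3. The summed level of 8 myeloid markers was 2045, 1108 and 849 CPM in the Cd74 cells and 476, 93.2 and 61.5 CPM in the others.
T cell genes were present in the 34. Trac was read in 33 of them and in 57 of the 87. The median of Trac over all groups was 387 CPM in the 34 and 517 CPM in the 87, but in WT sham it was 343 and 185 CPM. The median of Cd3g was 282 and 617 CPM. Without the 34 cells Trac was read in 21 of 40 Cd3g cells of WT sham, 19 of 24 of WT TAC and 17 of 20 of CD8-depleted TAC. Among cells that met none of the 3 limits, 684 had 5000 CPM or more of Cd74, with a median of 122622 reads and 4637 genes. Columns that hashtags marked as doublets were not used, and doublets within a hashtag were not removed, so the part of such doublets in these 34 cells was not tested. Of the 48 Ncr1/Gzma cells, 7 had Cd74 at or above 1000 CPM, 1 in WT sham, 4 in WT TAC, 2 in CD8-depleted TAC and 0 in both CD3e-/- groups.

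**Figure D3:**
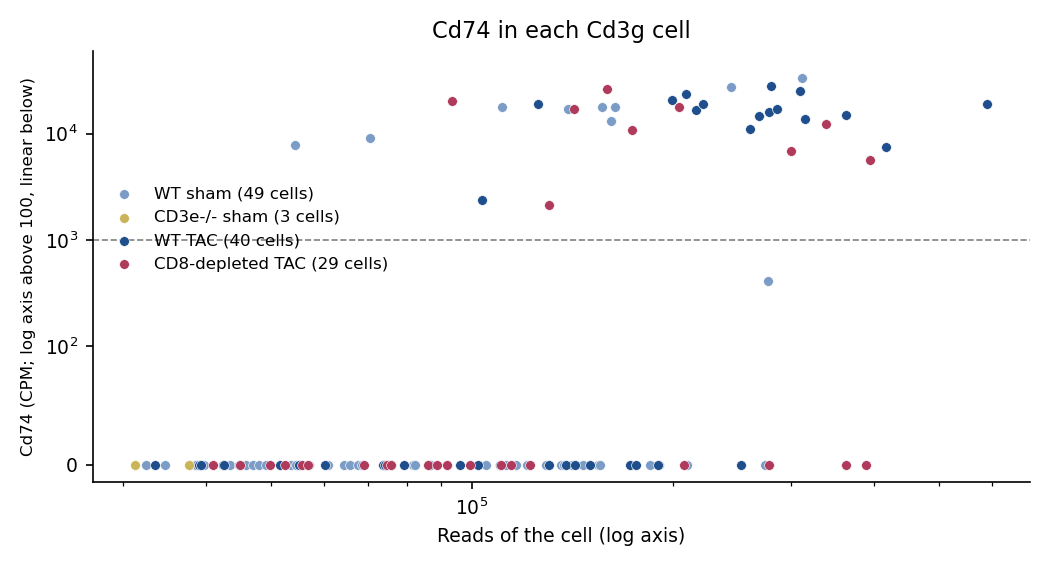
Cd74 (y axis, CPM, log scale above 100 and linear below) against the reads of the cell (x axis, log scale) for the 121 Cd3g cells, coloured by group. The dashed line is the limit of 1000 CPM, with 34 cells above it at 2153 CPM or more, 1 cell below it at 410 CPM and 86 cells at 0.

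Among Cd3g cells of WT mice, the listed genes of gamma-delta T cells and chemokines were lower in TAC hearts than in sham hearts, and for the chemokines most of this was lost without the Cd74 cells. Levels are the summed CPM of a group, and a log2 ratio has 10 CPM added to both sides. A gene that reached 50 CPM in either group is called tested below, although no statistical test was run. Of 4430 genes that reached 50 CPM in either group, 210 (4.74%) were at least 2-fold higher and 238 (5.37%) at least 2-fold lower in TAC, 10.1% in all, with a median log2 ratio of 0.01. Without the Cd74 cells 460 of 4695 genes (9.8%) were higher and 463 (9.86%) lower, 19.7% in all, and list counts given without these cells are to be read against those shares. All 7 tested genes of the list for innate-like and gamma-delta T cells were lower, with a median of -3.11. All 5 chemokines were lower, with a median of -2.10, and 4 of 5 tested genes of group 2 innate lymphoid cells were lower, with a median of -1.34. Of 3 coreceptor genes Cd4 was higher, and of 14 genes of the CD3 complex and its proximal signalling Cd5 and Cd6 were higher.
Trgc1, a gamma constant chain, was at 430 CPM (413 to 448, 14 of 49 cells) in WT sham and at 41.0 CPM (36.3 to 46.1, 4 of 40) in WT TAC. Without the Cd74 cells it was at 586 CPM (562 to 611, 14 of 40 cells) in WT sham and 109 CPM (96.6 to 123, 3 of 24) in WT TAC. Trdc was at 358 CPM (5 of 40 cells) and 0 (0 of 24) in these cells. Il23r was at 66.5 CPM (11 of 40) and 14.5 CPM (1 of 24), and Zbtb16, the PLZF factor of innate-like T cells, at 36.2 CPM (12 of 40) and 0.414 CPM (1 of 24). At least 3 of the 12 genes of this list were read in 14 of 40 cells of WT sham (35.0%, 20.6 to 51.7), 3 of 24 of WT TAC (12.5%, 2.66 to 32.4) and 4 of 20 of CD8-depleted TAC (20%, 5.73 to 43.7). Without the Cd74 cells 7 of 8 tested genes of the list were lower, beside 9.86% of all genes. The gamma constant genes are close copies, so reads may be split between them.
Ccl3, a macrophage inflammatory protein, was at 299 CPM (10 of 49 cells) in WT sham and 25.5 CPM (1 of 40) in WT TAC, and Ccl4 at 450 CPM (12 of 49) and 111 CPM (6 of 40). Ccl5 was at 1225 and 479 CPM, Xcl1, the lymphotactin that draws cross-presenting dendritic cells, at 611 and 135 CPM, and Cxcl10 at 93.6 and 3.21 CPM. Only part of this held without the Cd74 cells, where Ccl3 and Cxcl10 were at least 2-fold lower and the median of the 5 was -0.96. A cell held 39.3% of the Ccl4 reads of WT sham, and another held 69.5% of those of WT TAC.
Effector genes were split. Gzma was read in 3 of 49 cells of WT sham and 0 of 40 of WT TAC, Gzmb was at 348 and 168 CPM, and Gzmk, a granzyme of memory T cells, was at 13.6 and 57.4 CPM. Ifng was at 220 CPM (12 of 49 cells) and 94.5 CPM (11 of 40). Areg was at 228 CPM (5 of 49 cells) in WT sham and 0 (0 of 40) in WT TAC. Of those 5 cells, 4 were among the 13 of WT sham with no read of Trac, Trdc, Cd3d and Cd3e. Il1rl1 was at 136 CPM (14 of 49 cells) and 56.6 CPM (9 of 40) over all Cd3g cells, and its log2 ratio was 0.15 without the 21 cells that had no read of Trac, Trdc, Cd3d and Cd3e.
Cd5 and Cd6, surface receptors that tune T cell receptor signals, were higher, whereas the receptors Icos and Ctla4 were lower, Ctla4 at 176 CPM in WT sham and 70.6 CPM in WT TAC. Cd5 was at 95.3 CPM (13 of 49 cells) in WT sham and 284 CPM (21 of 40) in WT TAC, and Cd6 at 18.1 CPM (10 of 49 cells) and 106 CPM (23 of 40). Both remained at least 2-fold higher without the Cd74 cells, at 58.0 and 249 CPM for Cd5 and 7.44 and 57.2 CPM for Cd6. Cd4 was at 37.5 CPM (10 of 49 cells) and 152 CPM (22 of 40), and without the Cd74 cells at 36.7 and 167 CPM, where Cd8a (148 and 336 CPM) and Cd8b1 (131 and 505 CPM) were also past 2-fold. Over all Cd3g cells Cd8a was at 170 and 165 CPM.
Cxcr6, Icos and Nr4a1 were the lower genes of 7 tested for activation and tissue residency, and they stayed lower without the Cd74 cells. In the cells under 1000 CPM of Cd74, Cxcr6, a receptor of resident T cells, was at 616 and 285 CPM, Icos at 358 and 164 CPM, and Nr4a1, an early gene of receptor signalling, at 543 and 142 CPM. Genes induced by tissue dissociation were lower for 3 of 15 (Fosb, Hspa1a and Hspa1b), with a median of -0.75, and their part in the result was not tested.
The 10 genes named by the size of a lower ratio were Hilpda, Serpinb1a, Rgcc, Fosl2, Spry2, Ifrd1, Rhob, Dusp5, Trgc4 and Hagh, and all 10 stayed lower without the Cd74 cells. Hilpda, a lipid-droplet protein induced by low oxygen, was at 120 CPM (15 of 49 cells) and 2.33 CPM (1 of 40), a log2 ratio of -3.40. Dusp5, a phosphatase that limits ERK signalling, was at 1018 CPM (42 of 49) and 217 CPM (27 of 40). Spry2, another brake on ERK signalling, was at 91.2 and 10.6 CPM. Of the 10 named for a higher ratio, Wdfy4, Ciita, Ppt1, Gngt2, I830077J02Rik, Marchf1 and Il1b were not past 2-fold without the Cd74 cells, whereas H2-Oa, Zfp281 and Cd6 were.
Interferon-induced genes were read in more Cd3g cells of WT TAC and CD8-depleted TAC than of WT sham. At least 3 of the 14 listed genes were read in 14 of 49 cells of WT sham (28.6%, 16.6 to 43.3), 25 of 40 of WT TAC (62.5%, 45.8 to 77.3) and 19 of 29 of CD8-depleted TAC (65.5%, 45.7 to 82.1). Of these 3 groups WT sham had the lowest median depth, and its part in these shares was not tested. Over all Cd3g cells 2 of 6 tested genes were higher in WT TAC (Isg15 and Isg20). Without the Cd74 cells 8 of 11 were higher and none lower, with a median of 1.81, beside 9.8% of all genes. Isg15 was at 5.13 CPM (1 of 40 cells) and 131 CPM (7 of 24, of which 1 cell held 54.6% of the reads), and Isg20 at 21.6 CPM (3 of 40) and 54.7 CPM (4 of 24, of which 1 cell held 50% of the reads). In these cells at least 3 of the 14 genes were read in 9 of 40 cells of WT sham (22.5%, 10.8 to 38.5), 12 of 24 of WT TAC (50%, 29.1 to 70.9) and 11 of 20 of CD8-depleted TAC (55.0%, 31.5 to 76.9). Division genes were lower for 5 of 7 in the same cells, beside 9.86% of all genes, with Mki67 at 290 CPM (5 of 40) and 13.7 CPM (2 of 24). The share of cells went the other way, with at least 3 of the 10 division genes read in 11 of 40 cells of WT sham (27.5%, 14.6 to 43.9) and 9 of 24 of WT TAC (37.5%, 18.8 to 59.4).

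**Figure D4:**
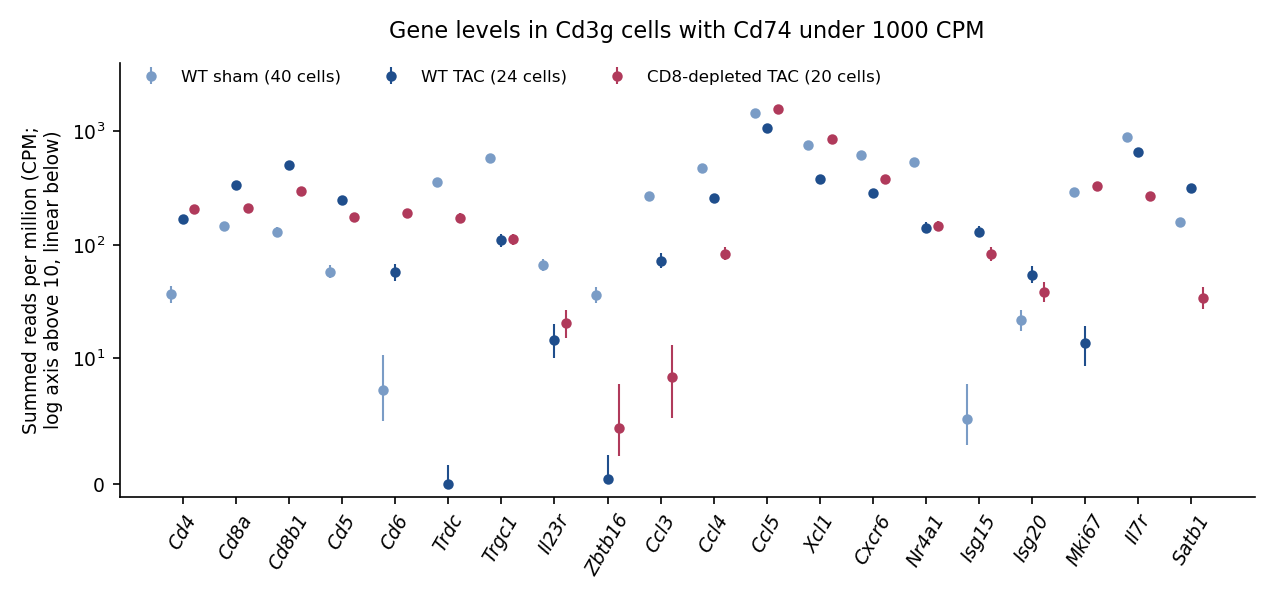
Summed level (y axis, CPM, log scale above 10 and linear below) of 20 genes in Cd3g cells with Cd74 under 1000 CPM, for WT sham (40 cells), WT TAC (24) and CD8-depleted TAC (20). Points are 1 sample each and bars the exact 95% counting interval of the reads. Trdc was 0 in WT TAC, Cd4 was 36.7, 167 and 205 CPM, and Mki67 was lowest in WT TAC at 13.7 CPM.

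Against WT TAC, the Cd3g cells of the group labelled CD8-depleted TAC had fewer reads of genes of naive and central memory T cells. Of 4500 tested genes 233 (5.18%) were at least 2-fold higher and 215 (4.78%) lower, 9.96% in all, with a median log2 ratio of 0.08. Of 8 tested naive and memory genes 4 were lower and none higher, with a median of -1.17. Without the Cd74 cells 5 of 8 were lower and 1 higher, where 509 of 4743 genes (10.7%) were lower and 528 (11.1%) higher, 21.9% in all. Il7r, the interleukin 7 receptor, was at 437 CPM (24 of 40 cells) in WT TAC and 161 CPM (14 of 29) in CD8-depleted TAC. Satb1 and Lef1, factors of naive T cells, were at 317 and 170 CPM in WT TAC and 34 and 35.2 CPM in CD8-depleted TAC without the Cd74 cells.
Tcf7 went against this pattern, at 310 and 462 CPM in the same cells. Cd28, the main costimulatory receptor, was at 99.0 CPM (11 of 24) in WT TAC and 315 CPM (12 of 20) in CD8-depleted TAC there. Division genes were higher for 3 of 10 (Birc5, Top2a and Tubb5) and for 8 of 10 without the Cd74 cells, where Mki67 was at 13.7 CPM (2 of 24) and 331 CPM (4 of 20, of which 1 cell held 66.8% of the reads). Gzmb was at 168 CPM (6 of 40 cells) and 394 CPM (3 of 29), and 1 cell held 86.8% of the latter. Xcl1 was at 135 and 482 CPM, with 87.1% of the latter in 1 cell. These sums of CD8-depleted TAC describe single cells rather than the group.
Areg and Trdc, both at 0 in the 40 Cd3g cells of WT TAC, were at 145 CPM (4 of 29 cells) and 96.9 CPM (2 of 29) in CD8-depleted TAC. Plac8 was at 82.8 CPM (6 of 40) and 394 CPM (10 of 29), and Traf3ip2, an adaptor of interleukin 17 receptors, at 4.52 CPM (4 of 40) and 77.4 CPM (14 of 29). Of the 10 genes chosen for a higher ratio, 9 stayed past 2-fold without the Cd74 cells (Traf3ip2, Emc8, Plac8, Ckap5, Fchsd1, Ncoa6, Gmps, Creld2 and Ppie). Of the 10 named for a lower ratio (Trf, Ppt1, Rab32, Marcks, Klrb1b, Rflnb, Mt2, Naaa, Fcgr2b and BC028528), Ppt1, Klrb1b, Rflnb and Fcgr2b stayed lower without them. The dendritic cell markers Cd209a and Xcr1 were lower in the same comparison.

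Most Ncr1/Gzma cells held NK receptor genes, and they divided by Eomes. Klrb1c or Klre1, a killer lectin-like receptor, was read in 44 of 48. Of the 4 cells with neither, 1 in CD3e-/- sham carried mast cell genes, with the 8 granulocyte and mast cell markers summed to 106096 CPM, and the other 3 were 1 cell of WT TAC and 2 of CD8-depleted TAC. Gzma was at or above its limit in 4 of 12 cells of WT sham, 4 of 7 of CD3e-/- sham, 5 of 11 of WT TAC, 9 of 12 of CD3e-/- TAC and 5 of 6 of CD8-depleted TAC.
Eomes, a factor of circulating NK cells that is low in type 1 innate lymphoid cells, was read in 24 of 48. It was read in 3 of 12 cells of WT sham (25.0%, 5.49 to 57.2), 5 of 7 of CD3e-/- sham (71.4%, 29.0 to 96.3), 4 of 11 of WT TAC (36.4%, 10.9 to 69.2), 8 of 12 of CD3e-/- TAC (66.7%, 34.9 to 90.1) and 4 of 6 of CD8-depleted TAC (66.7%, 22.3 to 95.7). All 5 intervals overlapped.
Some other genes followed Eomes. Among the 24 cells with Eomes reads, Prf1 (perforin) was read in 21 and Klra8 (Ly49H) in 18. Among the 24 without, these were read in 11 and 3. Tmem176b, Cd200r1 and Cxcr6, genes of type 1 innate lymphoid cells, were read in 2, 2 and 1 of the cells with Eomes and in 13, 13 and 7 of those without. Itga1, another gene of these cells, did not follow this split and was read in 12 of the cells with Eomes and 9 of those without. Of the cells without Eomes 5 had 1000 CPM or more of Cd74 and 1 was the cell with mast cell genes. Leaving out all 7 Cd74 cells, Tmem176b, Cd200r1 and Cxcr6 were read in 1, 1 and 1 of 22 cells with Eomes and in 8, 10 and 6 of 19 without. Itga1 was then read in 11 of 22 and 8 of 19. Median depth was 88811.5 and 80988.5 reads. Klra8 and the other Ly49 genes are near-identical, so reads may be split between them.

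**Figure D5:**
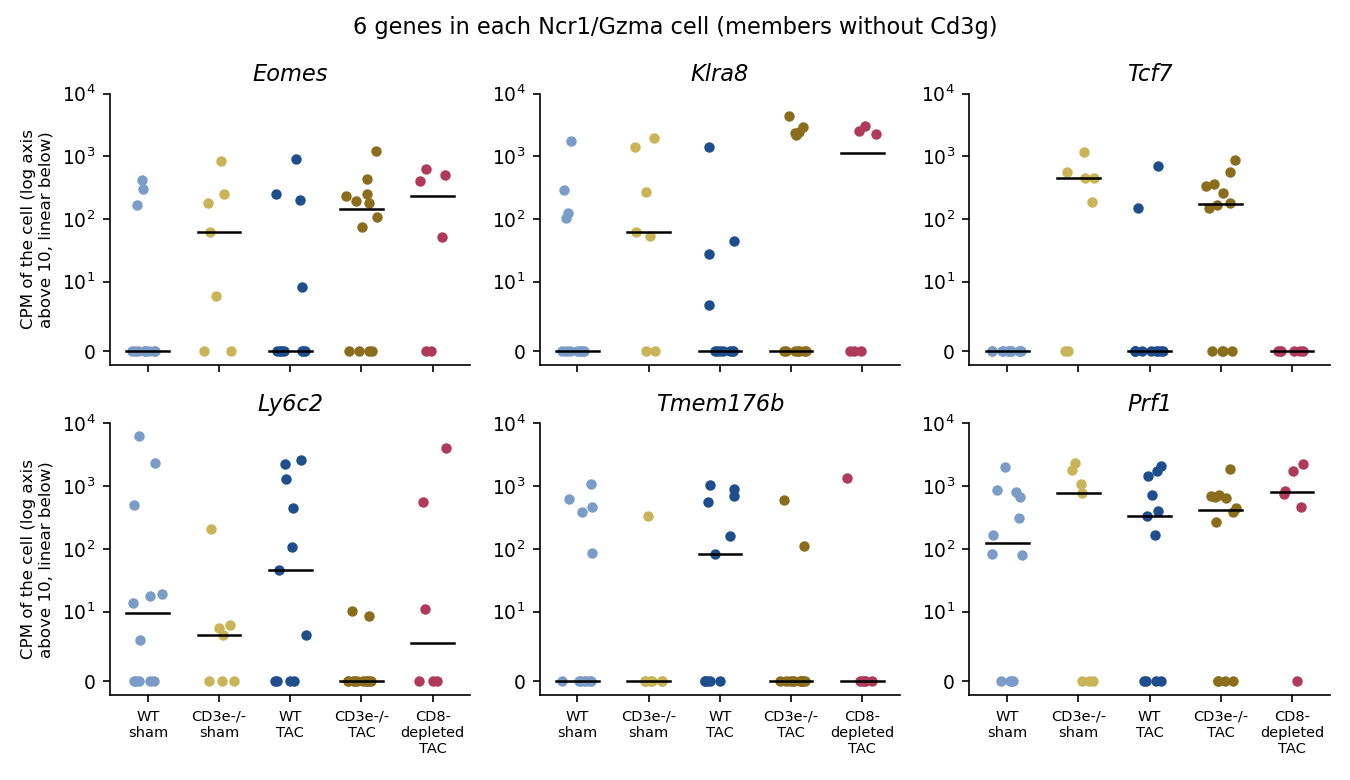
CPM of Eomes, Klra8, Tcf7, Ly6c2, Tmem176b and Prf1 (y axes, log scale above 10 and linear below) in each of the 48 Ncr1/Gzma cells, by group. Points are cells, spread sideways for sight, and black lines are medians. Tcf7 was at 0 in all 12 cells of WT sham and all 6 of CD8-depleted TAC and was read in 5 of 7 and 8 of 12 cells of the CD3e-/- groups.

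Between Ncr1/Gzma cells of CD3e-/- and WT hearts, some listed genes differed in the same direction under both surgeries and others in opposite directions. With 7 to 12 cells a group, many genes passed 2-fold. In sham 1076 of 5043 genes (21.3%) were higher and 1307 (25.9%) lower in CD3e-/- cells (47.3% in all), and in TAC 1040 of 4966 (20.9%) were higher and 938 (18.9%) lower (39.8% in all). The comparisons share no cells, and of 3762 genes tested in both, 147 were higher in both, 202 lower in both and 105 and 164 went in opposite directions. Whether these counts differ from the overlap of unrelated lists was not tested. Listed genes in opposite directions (log2, sham and TAC) included Cd160 (-3.90 and 1.72), Cxcr6 (-2.70 and 2.60) and Cd244a (-1.25 and 1.40). Zeb2 (2.42 and -1.13), Irf8 (1.63 and -1.25) and Tigit (1.39 and -1.46) were others.
Tcf7, a factor of early NK cells, was at 0 in WT sham (0 of 12 cells), 310 CPM in CD3e-/- sham (5 of 7), 29.7 CPM in WT TAC (2 of 11), 251 CPM in CD3e-/- TAC (8 of 12) and 0 in CD8-depleted TAC (0 of 6). In sham this is 109.8-fold higher against a floor of 3 reads in the WT group, and 32.0-fold with 10 CPM added to both sides. Klra8 was at 86.5 CPM (4 of 12), 750 CPM (5 of 7), 101 CPM (4 of 11), 1134 CPM (5 of 12) and 1253 CPM (3 of 6) in the same order. Il18r1, a chain of the interleukin 18 receptor, was at 4.70, 123, 50.8, 124 and 151 CPM. The Il18r1 ratio in TAC was -0.06 when the mean over cells replaced the sum.
The signalling adaptor Lat and the Ly49 gene Klra7 were also higher in both. Lat was at 26.3, 68.1, 21.9 and 145 CPM in WT sham, CD3e-/- sham, WT TAC and CD3e-/- TAC, and it was not past 2-fold in sham without the Cd74 cell. Over the whole list, 4 of 9 tested genes of the CD3 complex and proximal signalling were higher in sham and 6 of 9 in TAC, and none was lower in either. For naive and central memory genes it was 2 of 4 and 5 of 7.
Ly6c2 was the opposite, at 635 CPM (7 of 12 cells) in WT sham, 43.0 CPM (4 of 7) in CD3e-/- sham, 695 CPM (7 of 11) in WT TAC and 2.0 CPM (2 of 12) in CD3e-/- TAC. The highest cell of CD3e-/- TAC was at 10.3 CPM, and in WT sham 1 cell held 63.7% of the reads. Il2ra was read in 0 of 7 and 0 of 12 cells of the CD3e-/- groups and in 3 of 12 and 2 of 11 of WT. Stmn1, Pclaf and Tubb5, genes of dividing cells, were lower in both, and Mki67 was read in 2, 0, 3 and 3 cells of WT sham, CD3e-/- sham, WT TAC and CD3e-/- TAC. Tmem176b and Cd200r1 were lower in both, but in TAC their ratios were 0.89 and 0.05 without the Cd74 cells.
The lowest ratios of CD3e-/- TAC to WT TAC were Cd74, H2-Aa, H2-Ab1 and H2-Eb1, which were read in 0 of 12 cells against 4, 4, 6 and 4 of 11. The WT TAC group had the 4 cells at or above 1000 CPM of Cd74, and without them Cd74 and Gm2a were the 2 of the 10 named lower genes not past 2-fold. The highest ratios in sham were Mcpt4 and Cma1, mast cell proteases, which were at 5251 and 4348 CPM in CD3e-/- sham through the 1 cell with mast cell genes.

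In the Ncr1/Gzma cells of WT mice, TAC and sham differed by at least 2-fold for 899 (18.2%, higher) and 1021 (20.6%, lower) of 4950 genes, 38.8% in all. Of 8 tested genes of activation and tissue residency 5 were lower and none higher, with a median of -1.72, and the same 5 were lower without the Cd74 cells. There 1104 of 5063 genes (21.8%) were higher and 1272 (25.1%) lower, 46.9% in all. Nr4a1, Cd69, Icos and Itga1, the collagen-binding integrin CD49a of resident cells, were among them. Itga1 was at 243 CPM (7 of 12 cells) and 68.0 CPM (4 of 11). Of 15 genes induced by dissociation 2 were higher and 3 lower, and without the Cd74 cells 1 was higher and 7 lower, so that these moved beside the residency genes, and their part in the result was not tested.
Chemokines were lower for 3 of 5. Ccl4 was at 2850.2 CPM (9 of 12 cells) in WT sham and 784 CPM (5 of 11) in WT TAC, Ccl5 at 4209 CPM (12 of 12) and 1759 CPM (9 of 11), and Xcl1 at 3568 CPM (11 of 12) and 1585 CPM (7 of 11). Ccl4 and Ccl5 stayed past 2-fold without the Cd74 cells. Gzmb was higher, at 258 CPM (6 of 12) and 991 CPM (6 of 11). The 19 NK receptors had a median of -0.46, with 1 higher and 3 lower. In the CD8-depleted TAC group Gzma reached 6925 CPM (5 of 6 cells) and Gzmb 2000 CPM (4 of 6, of which 1 cell held 67.8% of the reads), beside Gzma at 2470 CPM in WT TAC. With 6 cells these levels describe single cells.

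Within WT groups the Cd3g cells and the Ncr1/Gzma cells were set side by side as a description. In WT sham 703 of 4828 genes (14.6%) were higher and 798 (16.5%) lower in Cd3g cells, and in WT TAC 595 of 4738 (12.6%) were higher and 660 (13.9%) lower. Il7r was at 747 CPM in Cd3g cells and 0 in the 12 Ncr1/Gzma cells of WT sham, and Rora at 252 and 0.940 CPM. Of 19 NK receptors 15 were lower in Cd3g cells in sham, and 15 of 18 in TAC. These receptors include Ncr1, and the Ncr1/Gzma cells were picked by Ncr1 or Gzma, so this count was partly fixed by the rule. Klrc1, the NKG2A chain, was at 38.0 and 757 CPM in sham and 35.0 and 653 CPM in TAC. All 5 chemokines were lower in Cd3g cells in TAC and 4 of 5 in sham, with Xcl1 at 135 and 1585 CPM in TAC.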

How the data were processed

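CD45+ cells of 5 hashtag groups were read in 1 TAS-Seq library. The authors deposited raw read counts per gene and cell barcode, which the labels' processing notes tie to cutadapt 2.10, Bowtie2 2.4.2 and GRCm38, after correction of barcode errors and assignment of hashtags. The 48 columns marked as hashtag doublets (40) or without a hashtag (8) were not used, no doublet caller was run, and no barcode was shared between hashtags. Groups were taken from the notes on each hashtag. Cells of at least 500 genes and a mitochondrial share of at most 0.4 were kept (5263 of 5315). The members and the gene lists were chosen with earlier results of these data known.

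Counts were divided by the reads of the cell (CPM per cell) or summed over cells of a group (summed CPM). With 1 sample a group no test was run. A log2 ratio had 10 CPM added on both sides and was computed for genes of at least 50 CPM in either group, and 2-fold is the size of difference that was counted. Named genes were the 10 of largest ratio each way among those with reads in at least 30% of the cells of the higher group. The ratio of the means over cells also had to go in the same direction as that of the sums. All genes named in this way were past 2-fold. Others were named from the lists or, for subsets of cells, after their values were seen. A fold against a group at 0 used a floor of 3 reads over the group. Intervals were exact at 95% (Clopper-Pearson for shares, Poisson for reads). Reads are not molecules, so they cover counting error only. The calculation of ratios was also run on simulated counts, in which cells differed only in depth and counting error. That run checks the calculation and not the error of the ratios given here. The scripts ran in Python 3.11.15 with pandas 2.3.3, numpy 2.4.6 and scipy 1.17.1, and figures were drawn with matplotlib 3.10.9.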

Additional observations from a re-analysis of the deposited data

Results flagged for a closer look

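The share of Ncr1/Gzma cells was lower in TAC than in sham in WT hearts, by -0.519 percentage points, and higher in CD3e-/- hearts, by 0.467 percentage points. The groups had 6 to 12 such cells, and the difference between the genotypes was not tested. Of 25 listed genes past 2-fold from sham to TAC in Ncr1/Gzma cells of both genotypes, 13 went in the same direction and 12 in opposite directions. Among those past 4-fold in both, the ratio of TAC to sham went in opposite directions for Cxcr6, at -2.93 in WT and 2.37 in CD3e-/- (log2), and for Cd160, at -2.36 and 3.26. It went in the same direction for Cxcr4, at 2.58 and 3.21, and for Nfil3, at -2.06 and -2.72. Cxcr6 was read in 4 of 12, 1 of 11, 1 of 7 and 2 of 12 cells of WT sham, WT TAC, CD3e-/- sham and CD3e-/- TAC, and these differences were not tested.

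Signal was also present outside the cells described. Another 15 cells had Cd3g at or above its limit but were left out for Lyz2 or Cd79a, and 1 of them was from CD3e-/- TAC, with 9 Cd3g reads. Cd3e was read in 4.97% of the cells outside the T and NK cells of CD3e-/- sham and in 8.93% of those of CD3e-/- TAC, against 3.94% in WT sham and 4.35% in WT TAC.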

How the results depend on the processing

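No paired analysis was possible because each group is 1 sample, and no replicate could be left out. Of the values that answer a comparison, 202 stayed within their counting interval or within 1.5 times the reported count and 22 did not. Of the values that are ratios of single genes, 740 stayed, 327 moved and 5 changed sign. Without cells of 1000 CPM or more of Cd74, an alternative chosen after seeing the data, T and NK cells made up 1.92% of WT TAC and 2.68% of CD8-depleted TAC, and Cd3g cells 1.49% of WT TAC. Without Cd3g cells lacking Trac, Trdc, Cd3d and Cd3e, also chosen after seeing the data, Cd3g cells made up 3.6% of WT sham and 0 of CD3e-/- sham.

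Counts of genes past 2-fold depended on the CPM added and on the filter. With 50 CPM added they were 128 (Cd3g cells, WT TAC to sham), 80 (Cd3g cells, CD8-depleted to WT TAC), 922 (Ncr1/Gzma cells, WT TAC to sham), 1455 (CD3e-/- to WT, sham), 958 (CD3e-/- to WT, TAC), 589 (Cd3g to Ncr1/Gzma cells, sham) and 426 (the same, TAC). With genes of at least 10 CPM they were 1187, 1201, 4147, 4861, 4232, 3530 and 3094 in that order. Without the Cd74 cells they were 923 and 1037 for the first pair and 2198 for the last. With 50 CPM added the same genes and cells were used and ratios of low genes shrink. With the lower filter more genes were tested, and without the Cd74 cells fewer cells were summed.

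Single ratios that changed sign were Flt3 (-0.18, Cd3g cells, WT TAC to sham), Tmem176b (0.89) and Cd200r1 (0.050, both Ncr1/Gzma cells, CD3e-/- to WT TAC) without the Cd74 cells, Il1rl1 (0.15, Cd3g cells, WT TAC to sham) without the cells lacking Trac, Trdc, Cd3d and Cd3e, and Il18r1 (-0.064, CD3e-/- to WT TAC) as a mean over cells. The cause was not tested. With 6 to 12 Ncr1/Gzma cells a group, 1 or 2 cells set many sums.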
